A study of Mus musculus with 8 samples.

Results

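The genes described here are 10 transcripts of the interleukin-1 (IL-1) family and the NLRP3 inflammasome, taken by symbol from a table of 26848 mouse genes. They are the ligands Il1a, Il1b and Il18, the antagonist Il1rn, the receptors Il1r2 and Il1rap, and the inflammasome genes Nlrp3, Pycard, Casp1 and Gsdmd. All 10 were in the table. RNA came from RAW264.7 cells, an established mouse macrophage-like line, grown on polyetheretherketone (PEEK), a polymer for bone implants. The PEEK surface was smooth in 4 libraries and carried a nano- and microstructured topography in the other 4. The labels name no genotype, drug, stimulus, dose or culture time, and all 8 libraries share the cell line, so the surface is the labelled difference. The comparison asks whether these genes differ between the surfaces. Libraries are numbered here 1 to 4 by library name. In each group the titles call only libraries 2 to 4 biological replicates, numbered from 1, and give smooth 1 and structured 1 no replicate label. Whether each library was its own culture is not said. The p-values therefore cover library-to-library spread, whose source may be technical.

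Macrophages make IL-1 in steps. A first signal, often through Toll-like receptors, induces the Il1b and Nlrp3 transcripts, and a second signal makes the sensor NLRP3 assemble with the adaptor ASC, the product of Pycard. That complex activates caspase-1, the product of Casp1, which cleaves pro-IL-1β and pro-IL-18 and the pore former gasdermin D. IL-1α, from Il1a, is active without that cleavage. IL-1 receptor antagonist, from Il1rn, occupies the signalling receptor, Il1r2 encodes a decoy receptor, and Il1rap encodes the shared accessory chain. RAW264.7 cells are known for lacking ASC.

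In the table Il1a lies on chromosome 2, 129299610 to 129309972, and Il1b on chromosome 2, 129364570 to 129371139, both on the minus strand and 54.6 kb apart. The bases before both starts are shown because these are the members whose libraries did not overlap between the surfaces. Each run holds the 250 bases before the RefSeq start (GRCm38.p6, minus strand, 5′ to 3′), at chr2:129309973-129310222 for Il1a and chr2:129371140-129371389 for Il1b.
Il1a: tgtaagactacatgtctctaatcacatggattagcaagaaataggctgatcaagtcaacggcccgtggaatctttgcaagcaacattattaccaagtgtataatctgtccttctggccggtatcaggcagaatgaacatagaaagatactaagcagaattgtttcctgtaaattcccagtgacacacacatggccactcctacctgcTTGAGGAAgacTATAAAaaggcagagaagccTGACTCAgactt
Il1b: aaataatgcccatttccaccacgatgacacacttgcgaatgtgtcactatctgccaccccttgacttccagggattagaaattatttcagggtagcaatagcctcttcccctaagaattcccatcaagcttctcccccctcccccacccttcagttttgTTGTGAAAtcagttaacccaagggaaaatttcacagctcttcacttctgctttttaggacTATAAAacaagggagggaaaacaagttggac
Capitals mark matches to 4 motifs searched on both strands. The TATA motif (TATAAA) begins 32 bases before the start in Il1a and 31 in Il1b. It is in 12.4% of 32851 RefSeq windows of the same length. A C/EBP motif (TTNNGNAA, in 36.8% of windows) begins 43 bases before the start in Il1a and 91 in Il1b. An AP-1 motif (TGANTCA, in 6.75%) occurs in Il1a, 12 bases before the start. The NF-kB motif (GGG, then any 5 bases, then CC, in 45.8%) has no match in either window. No searched motifs overlap each other here, and a match is a description of letters only.

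Library totals ran from 64479829 to 73098735 count units, where 1 read pair appears to count as 4 units. Defining macrophage genes were present: 12 markers summed to 6199 to 6698 CPM, the counts of a gene per 1000000 scaled counts, in the 8 libraries, led by Lyz2, Csf1r and Cd68. Transcripts listed as markers of other cell types were also present and differed between libraries, and the cells that made them were not tested. Of 24 neutrophil markers 22 were in the table and 11 were tested, of which 7 rose on the structured surface and none fell. Over all tested genes 1.01% were called higher and 2.75% lower. Markers at 0 in every smooth library, as Ngp and Mmp8 were, passed the filter on low counts only through the structured libraries. For those a rise was the only call possible, so the count of 7 is not read as a result. Mmp9, the most abundant of them, leaned the other way without passing the threshold. Its log2 fold change, structured minus smooth, was -0.21 (edgeR, Benjamini-Hochberg adjusted p = 0.078). For Csf3r, also tested, the log2 fold change was 0.018. Without Mmp9, the other 21 summed to 6.53 to 7.85 CPM in the smooth libraries. They summed to 23.2, 79.7, 79.8 and 90.9 CPM in structured 1 to 4. Single markers differed in this pattern. Lcn2 was at 11.1 CPM in structured 1 and 15.7 to 17.4 in structured 2 to 4, and Chil3 at 1.24 and 18.4 to 26.0. Ltf, Ngp, Mmp8, Elane, Mpo, Ctsg, Retnlg and Cxcr2 were at 0 in every smooth library. Most of them were also at or near 0 on structured PEEK. Elane, Mpo and Ctsg reached at most 0.059, 0.043 and 0.087 CPM there, Ltf 0.298, Retnlg 0.428 and Cxcr2 1.21. Ngp ran from 0.159 to 5.57 CPM and Mmp8 from 0.750 to 12.8 CPM. Summed over 18 hepatocyte markers the level was 74.8 to 365 CPM on smooth and 156 to 501 on structured PEEK, and over 14 skeletal muscle markers 22.8 to 69.1 and 16.9 to 25.3 CPM. Of the epithelial list 3 genes were in the table and summed to 0.233 to 0.961 and 1.25 to 6.30 CPM. The part of these transcripts in the results on the members was not tested.

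On the FPKM scale, which divides by gene length and depth, the members fell into clear tiers. Nlrp3 had the highest level, at a mean of 17.1 FPKM over the 8 libraries, followed by Casp1 (14.1), Il1rn (13.6) and Gsdmd (12.8). The ranges of neighbours in that order overlapped among these 4. Il18 followed at 2.98 FPKM and Il1rap at 1.13 FPKM, each with a range apart from its neighbours. Pycard (0.745 FPKM), Il1b (0.324), Il1r2 (0.184) and Il1a (0.0990) came last, and neighbours among these overlapped. The sensor, the protease, the pore former and the antagonist were thus all far above both IL-1 agonist transcripts in these cells. The Pycard level was read over 3800 bases of merged exons.

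**Figure D1:**
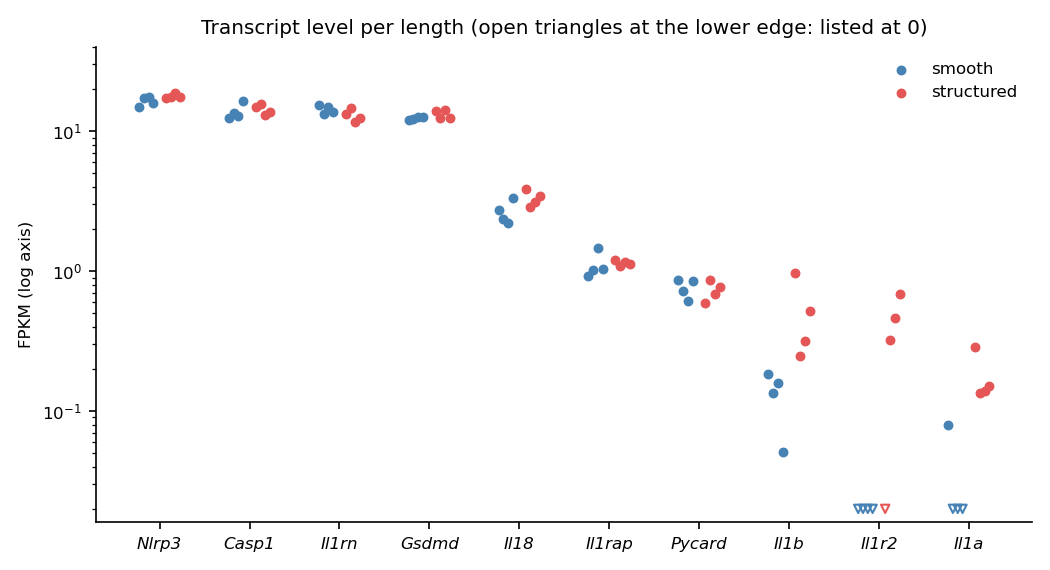
Level of each member in FPKM (log axis) in the 4 smooth (blue) and 4 structured (red) libraries, ordered by the mean. Nlrp3, Casp1, Il1rn and Gsdmd lie between 11.6 and 18.6 FPKM, while Il1b stays below 1 and Il1a and Il1r2 are listed at 0 in 3 and 5 libraries.

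Il1a and Il1b were higher in every structured library than in any smooth library, but neither passed the test across all genes. None of the 9 tested members passed in either direction (edgeR quasi-likelihood test, Benjamini-Hochberg adjusted p below 0.05), against 3.75% of the 16006 genes tested, 1.01% higher and 2.75% lower. At an unadjusted p below 0.05 there were 2, Il1a and Il1b, where 18.7% of all tested genes stood. DESeq2 called none of the 5 members to which it gave an adjusted p, and limma voom called 1, Il1a. The median log2 fold change of the 9 members was 0.10, with 7 positive and 2 negative, against 0.01 over all tested genes. Il1r2 stayed below the filter on low counts and was not tested. Groups did not overlap for 2 of the 9, where 12.2% of all tested genes had groups that did not overlap, and 5.19% had them with structured PEEK higher. Il1a and Il1b are low, and among the 4838 tested genes with a mean below 2 CPM that last share was 2.25%. The edgeR test called 0.537% of those low genes in either direction. Il1a, at 0 in smooth 2 to 4, could pass the filter on low counts only through its structured libraries. Its place among the 9 and its groups not overlapping are thus tied together, and 2 of 9 is not read against these shares.

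**Figure D2:**
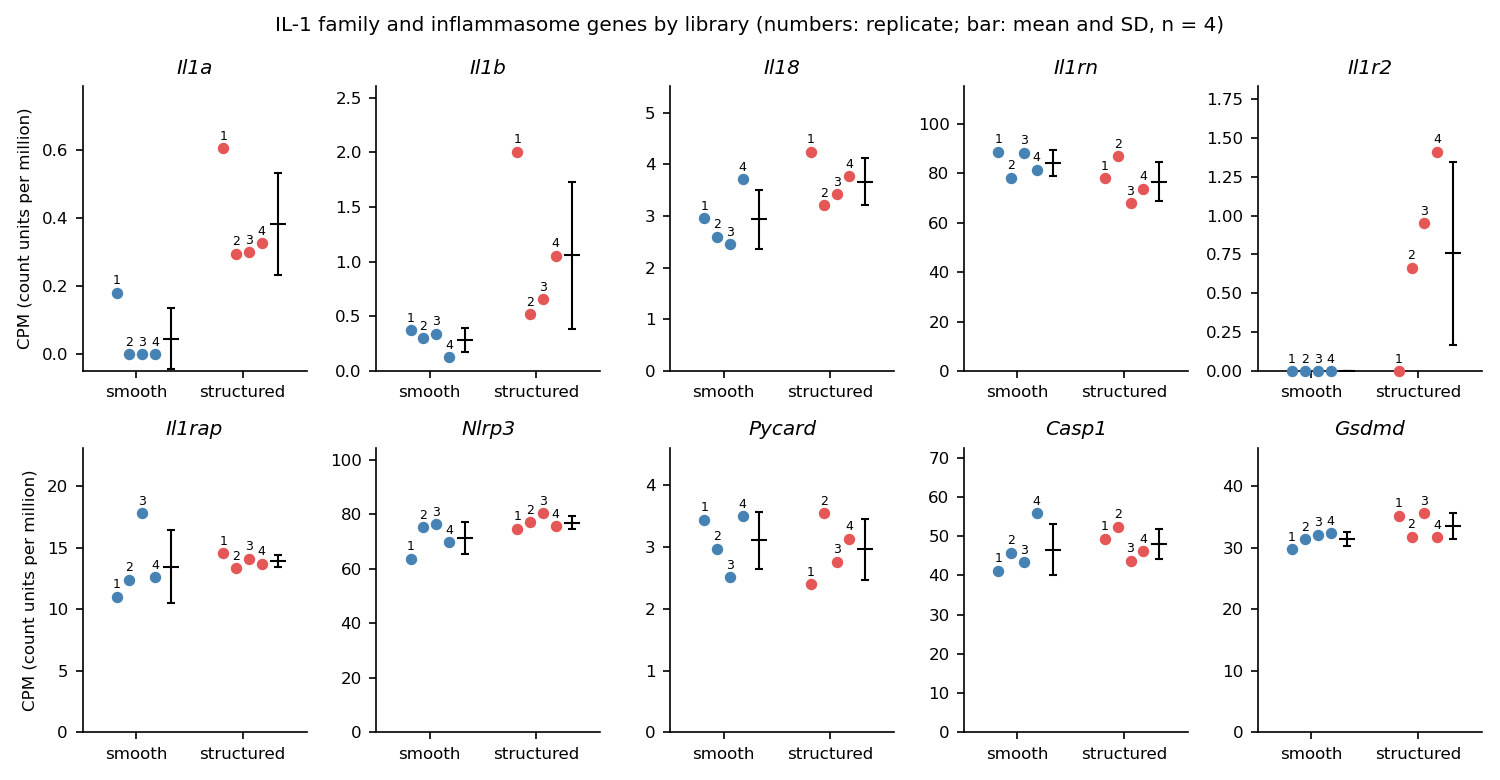
CPM of each member in each library, with the replicate number beside each point and the mean and SD (n = 4) as bars. Structured 1 is the highest library for Il1a and Il1b and is at 0 for Il1r2, while the inflammasome genes Nlrp3, Casp1, Pycard and Gsdmd overlap between the surfaces.

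Il1b, the ligand most tied to macrophage activation, stood at 0.375, 0.297, 0.341 and 0.125 CPM in smooth 1 to 4. It stood at 2.01, 0.517, 0.654 and 1.05 CPM in structured 1 to 4. The lowest structured library was above the highest smooth library, and structured 1 was nearly as high as the other structured libraries together. The mean was 0.285 ± 0.111 CPM on smooth and 1.06 ± 0.672 on structured PEEK (SD, n = 4 per group). The log2 fold change was 1.89 ± 0.50 (SE; 95% interval 0.80 to 2.98; edgeR BH-adjusted p = 0.0603). Leaving out structured 1 gave 1.38 (adjusted p = 0.172), and over 15 alternatives the edgeR and limma adjusted p ran from 0.0572 to 0.215. The counts are small: 77 units, or about 19.3 fragments, over the smooth libraries and 288 units, or 72 fragments, over the structured ones. A ratio of pooled levels of 3.77 had a 95% exact interval of 2.28 to 6.71, which covers counting error only. The antisense gene Il1bos overlaps Il1b and had at most 14 units in any library, with means of 1 on smooth and 7.5 on structured PEEK. In this bulk RNA, more cells with a transcript and more transcript per cell cannot be told apart.

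Il1a, which encodes a ligand active as its precursor, was at 0.180 CPM in smooth 1 and at 0 in smooth 2 to 4. It was at 0.606, 0.295, 0.298 and 0.326 CPM in structured 1 to 4. Every structured library was thus above every smooth one, with structured 1 again the highest. The log2 fold change was 3.05 ± 1.09 (SE; 95% interval 0.66 to 5.44; edgeR BH-adjusted p = 0.151). The pooled levels rest on 3 fragments over the smooth and 26 over the structured libraries, a ratio of 8.73 with a 95% exact counting interval of 2.68 to 45.1. The only smooth reads came from smooth 1, and without that library the adjusted p was 0.0171 and the fitted log2 fold change 7.71, a value set by smooth libraries all at 0. Limma voom also passed it (log2 fold change 4.51, adjusted p = 0.0266). Opposite to Il1a lies Gm14023, with 0 to 22 units per library and means of 8.25 on smooth and 19.3 on structured PEEK, beside 3 and 26 for Il1a. The strand setting of the counting is not given in the sources used here, so reads of such pairs may not have been separated.

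Among the structured libraries, the order for Il1a and Il1b differed from that of the neutrophil markers through structured 1. Structured 1 had the highest Il1b and Il1a of all libraries and the lowest neutrophil marker sum of the structured libraries, 23.2 CPM. From structured 2 to 3 to 4, Il1b rose, at 0.517, 0.654 and 1.05 CPM. Il1a was nearly level over these libraries, at 20, 21 and 21 units. The marker sum was level from structured 2 to 3 and higher in structured 4, at 79.7, 79.8 and 90.9 CPM. The part of the neutrophil transcripts in the Il1a and Il1b levels was not tested. Among the 11092 tested genes with at least 1 FPKM in either group, the 5 most like Il1b in log2 CPM over the 8 libraries were Cep83, Txndc5, Ptpn11, Nus1 and Tmed1. Their Pearson r with Il1b ran from 0.941 to 0.957, as a description over libraries that share their depth and scaling. Their own log2 fold changes were small, from 0.04 for Ptpn11 to 0.19 for Cep83, a centriole protein gene. Since they were picked for following Il1b over the same libraries, a difference between the surfaces came with the choice and is not read as a result. The FPKM of Cep83 was 6.52 to 7.25 in the smooth and 7.50 to 8.18 in the structured libraries, with structured 1 the highest.

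Il18, the other ligand that caspase-1 matures, was at 2.96, 2.60, 2.45 and 3.71 CPM in smooth 1 to 4. The structured libraries gave 4.24, 3.20, 3.43 and 3.77 CPM. Smooth 4 lay within the structured range, so the groups overlapped. The log2 fold change was 0.32 ± 0.17 (SE; 95% interval -0.06 to 0.70; edgeR BH-adjusted p = 0.364). The gene Bco2 overlaps Il18 on the opposite strand at a similar level, with 237 to 369 units per library, so the Il18 value carries the same limit on strand.

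Il1rn, the antagonist and the abundant member of the ligand group, was at 88.8, 78.3, 88.5 and 81.6 CPM in smooth 1 to 4. It was at 78.0, 87.0, 68.0 and 73.8 CPM in structured 1 to 4. Structured 2 was within the smooth range, the other 3 below it. The log2 fold change was -0.14 ± 0.07 (SE; 95% interval -0.29 to 0.02; edgeR BH-adjusted p = 0.348), so a fall of more than 0.29 on the log2 scale lay outside the interval. Il1rn is on chromosome 2, 24336853 to 24351494.

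Agonist and antagonist were also compared within each library, per length. Il1b made up 1.18%, 1.01%, 1.07% and 0.370% of the summed Il1b and Il1rn FPKM in smooth 1 to 4. It made up 6.85%, 1.67%, 2.69% and 3.98% in structured 1 to 4. All structured libraries were above all smooth ones, and in each library the antagonist transcript was still the great majority. The means were 0.907% ± 0.365 and 3.79% ± 2.24 (SD, n = 4 per group). An exact two-sided permutation test gave p = 0.0286, the smallest that 4 against 4 samples allow. Adjusted over the 2 exact tests reported here, this share and Il1r2, it was 0.0571. The same test was also computed for the CPM of every listed member, pathway and marker gene, and the adjustment does not cover those. The share follows Il1b, from 2.25 to 34.8 fragments per library, and is no separate evidence. Without structured 1 the difference of 2.89 percentage points became 1.87, and without any 1 smooth library the exact p was 0.0571.

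**Figure D3:**
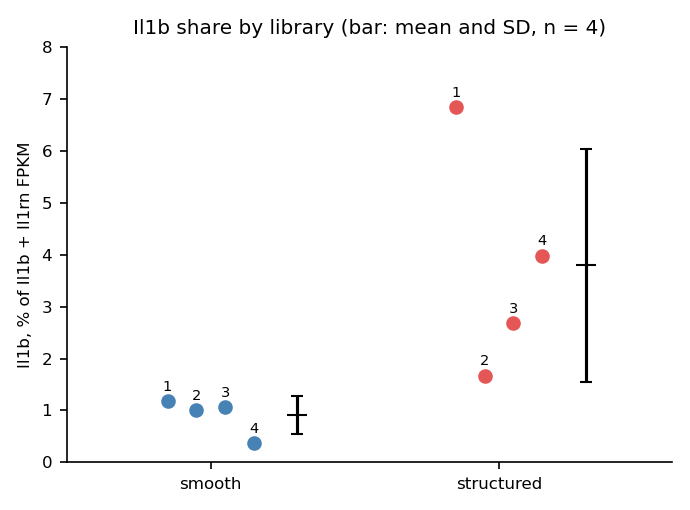
Il1b as a percentage of Il1b plus Il1rn FPKM in each library, with replicate numbers and the mean and SD (n = 4). The smooth libraries lie between 0.370% and 1.18% and the structured libraries between 1.67% and 6.85%.

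Il1r2, the decoy receptor, on chromosome 1, 40074079 to 40125231, was at 0 in all 4 smooth libraries and in structured 1. It was at 0.664, 0.952 and 1.41 CPM in structured 2, 3 and 4. The groups therefore touched at 0, and structured 1 sat with the smooth libraries. Over the group the structured level was at least 17.0-fold higher than a floor of 3 fragments, or 12 units, summed over the smooth libraries. An exact two-sided permutation test of CPM gave p = 0.143, also 0.143 adjusted over the 2 exact tests reported here. Without structured 1 the gene entered the edgeR fit with a BH-adjusted p of 0.0093. With all 8 libraries and no filter on low counts it had 0.131. Leaving out structured 1 removed the only structured library at 0, and the filter was passed only through the 3 libraries with reads. The 0.0093 came with that choice and is not read as support. Without any 1 smooth library the gene also entered, at edgeR adjusted p-values of 0.0638 to 0.0968. Neutrophils are known for strong Il1r2 expression, and the 3 libraries with Il1r2 reads were those with neutrophil marker sums of 79.7 to 90.9 CPM. Their part in the Il1r2 level was not tested.

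**Figure D4:**
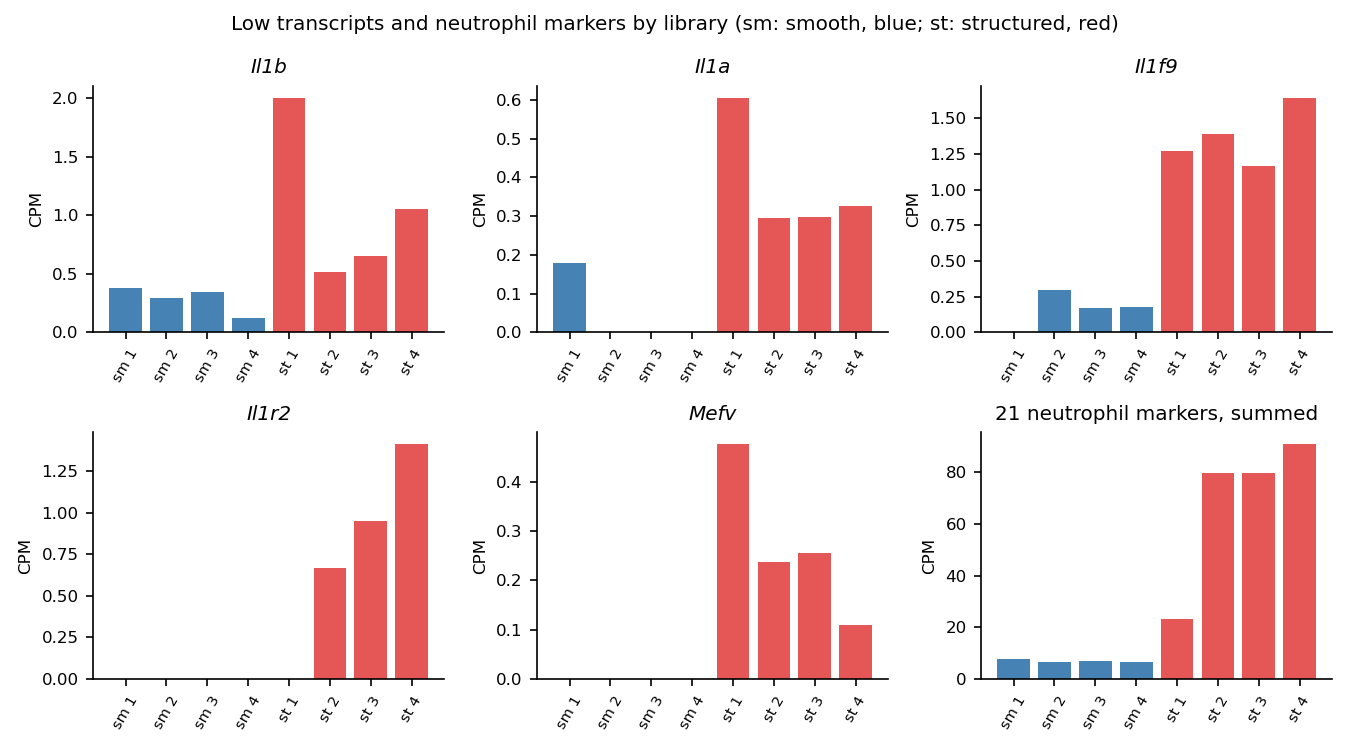
CPM in each library (smooth blue, structured red) of Il1b, Il1a, Il1f9, Il1r2 and Mefv, and the summed CPM of 21 neutrophil markers without Mmp9. Il1r2 is at 0 in structured 1, where the marker sum is 23.2 CPM, while Il1b, Il1a and Mefv are highest there.

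Il1rap, the accessory chain needed for IL-1 and IL-33 signalling, ranged from 11.0 to 17.8 CPM in the smooth libraries, where smooth 3 was the highest of all 8. The structured libraries fell within that range, at 13.3 to 14.5 CPM. The log2 fold change was 0.05 ± 0.13 (SE; 95% interval -0.24 to 0.33; edgeR BH-adjusted p = 0.899).

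The inflammasome genes gave overlapping groups, with intervals that held 0. Nlrp3, the sensor, was at 63.7, 75.1, 76.4 and 69.7 CPM in smooth 1 to 4. The structured libraries gave 74.6, 77.1, 80.3 and 75.5 CPM, with smooth 1 the lowest of all. Its log2 fold change was 0.11 ± 0.06 (SE; 95% interval -0.02 to 0.24; edgeR BH-adjusted p = 0.342). Casp1, the protease, ranged from 41.2 to 55.9 CPM on smooth and from 43.8 to 52.4 CPM on structured PEEK, with an interval of -0.16 to 0.24. Its log2 fold change was 0.04, and -0.058 once GC content and gene length were adjusted for. Gsdmd, whose product forms the membrane pore, ranged from 29.8 to 32.4 CPM on smooth and from 31.8 to 35.6 CPM on structured PEEK (log2 fold change 0.10, interval -0.03 to 0.22). Pycard, the adaptor gene, was at 3.44, 2.97, 2.51 and 3.49 CPM in smooth 1 to 4. It was at 2.39, 3.54, 2.76 and 3.13 CPM in structured 1 to 4, so the ranges nearly coincided. Its log2 fold change was -0.07 ± 0.18 (SE; interval -0.46 to 0.32; edgeR BH-adjusted p = 0.894). The counts hold low but nonzero Pycard levels, 162 to 252 units per library, and say nothing of the protein. For Nlrp3, Casp1 and Gsdmd a change of 1 on the log2 scale in either direction lay outside the 95% intervals.

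**Figure D5:**
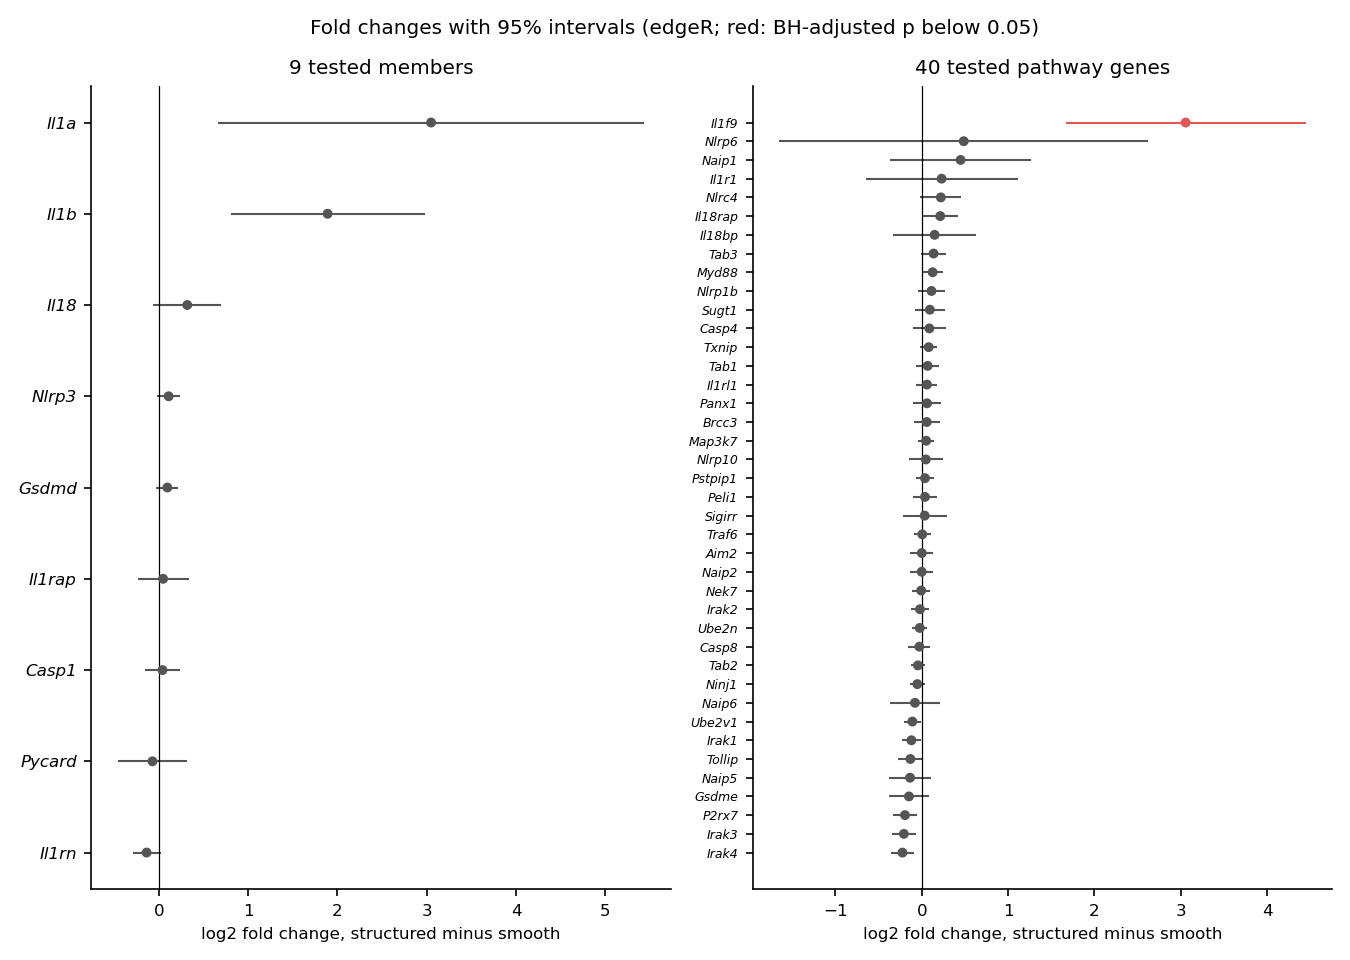
Log2 fold change (structured minus smooth) with its 95% interval for the 9 tested members (left) and 40 tested genes of the wider pathway (right, own axis). Il1f9 alone is past the threshold, at 3.06.

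Around these members, 55 further genes of IL-1 signalling and inflammasomes were listed, of which 48 were in the table and 41 were tested. Of these 1 rose, 2.44% against 1.01% of all tested genes, and none fell (edgeR). DESeq2 called 3, Irak4 and P2rx7 among them, and voom called 1. At an unadjusted edgeR p below 0.05 there were 4 higher and 5 lower, and 5 of the 41 had groups that did not overlap. Over all tested genes those shares were 18.7% and 12.2%, so neither count stands out. The median log2 fold change of the 41 was 0.04.

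The gene that rose was Il1f9, which encodes the IL-36γ ligand (Il36g), on chromosome 2, 24186476 to 24193568, 143 kb from Il1rn. It was at 0, 0.297, 0.171 and 0.180 CPM in smooth 1 to 4. It was at 1.27, 1.39, 1.17 and 1.64 CPM in structured 1 to 4, so the groups did not overlap and structured 1 lay inside the range of its group. Its log2 fold change was 3.06 ± 0.63 (SE; 95% interval 1.67 to 4.45; edgeR BH-adjusted p = 0.0271). The call rests on 45 units against 370 and was lost without smooth 3, smooth 4, structured 1, structured 2 or structured 4, at adjusted p-values of 0.0575 to 0.0819. Over 17 alternatives the adjusted p ran from 0.00575 to 0.493, the last with structured 1 alone against smooth. Il18bp, which encodes an IL-18 trap and was the most abundant of its list, had a log2 fold change of 0.15 (edgeR BH-adjusted p = 0.801).

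None of the other lists had a gene past the threshold by edgeR. Of 4 tested receptors, Il1rl1, which encodes the IL-33 receptor, was the most abundant (4.04 FPKM; log2 fold change 0.06). Among receptors the unadjusted p was below 0.05 for 1. Of 14 signalling genes 1 was higher and 4 lower at that unadjusted level, where 18.7% of all tested genes stood. Ube2v1, a ubiquitin-conjugating cofactor, was the most abundant (58.8 FPKM; log2 fold change -0.11). Irak4 and Irak3, a kinase at the receptor and its family's inhibitor, had groups that did not overlap, the only 2 of these 14 genes, against 12.2% of all tested genes. Irak4 was at 22.0 to 23.8 CPM on smooth and 19.1 to 21.7 on structured PEEK (log2 fold change -0.22, edgeR BH-adjusted p = 0.0650). Irak3 was at 28.5 to 31.4 and 23.5 to 28.0 CPM (-0.21, adjusted p = 0.0957). These 2 were named after their values were seen.

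Of 16 tested sensors and adaptors, Txnip, which binds thioredoxin and NLRP3, was the most abundant (105 FPKM; log2 fold change 0.08). P2rx7, the ATP-gated channel that can trigger NLRP3, was at 51.2 to 62.1 CPM on smooth and 45.0 to 49.9 on structured PEEK. Its log2 fold change was -0.19 (edgeR BH-adjusted p = 0.117). Of 5 tested caspase and pore genes, Ninj1, which mediates membrane rupture, was the most abundant (77.6 FPKM; log2 fold change -0.05). P2rx7 was likewise chosen after its values were seen.

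Mefv, which encodes the sensor pyrin, was too low to test and is named after its values were seen. All smooth libraries were at 0, and it was at 0.476, 0.236, 0.256 and 0.109 CPM in structured 1 to 4, on chromosome 16, 3707218 to 3718097. Pooled over the group that was at least 6.21-fold higher than the floor of 3 fragments over the smooth libraries. The highest Mefv library was structured 1, as for Il1a and Il1b, and the value in structured 4 lay under the 0.186 CPM that 3 fragments give there.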

How the data were processed

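RNA selected on oligo(dT) was sequenced as pairs of 150-base reads with a kit that marks strand, per the labels' protocols. The submitters' processing notes name cutadapt 1.9 and HISAT2 2.2.1. For the counter, strand setting, molecular identifiers, annotation and build, the answer is not given in the sources used here. A single deposited table holds expected counts, rounded to whole numbers, and FPKM values. Among low counts, 4 occurred 8018 times, 3 occurred 3344 times and 5 occurred 2180 times, so 1 fragment is read as 4 units. That unit is approximate, since multiples of 4 made up 32.1% of the low values (up to 40) and 25.3% of much higher ones, and fragment numbers, floors and exact intervals rest on it. Positions equal GENCODE M21 (GRCm38) for 9 of 10 members, all but Casp1, and RefSeq held promoters for 9, all but Gsdmd. Replicate numbers come from library names.

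Genes were filtered with filterByExpr (minimum count 10), scaled by TMM and tested with edgeR 4.0.16 under R 4.3.3, two-sided. A check on simulated data used 1 or 4 units per fragment. It recovered 99% and 98% of log2 changes of 1, and 69% and 51% of changes of 0.3. Every simulated gene had the same small spread between libraries beyond counting error, so the check does not speak for genes as variable as Il1b. Changes were placed only in genes above a minimum mean count. It thus does not speak for genes as low as Il1a or, at 4 units per fragment, as low as Il1b. CPM is the count over the scaled total times 1000000. limma 3.58.1 and DESeq2 1.42.0 were alternatives. Members and lists were chosen with earlier results of these data known. Named were all members, pathway genes past the threshold, the most abundant of each list and the 5 genes most like Il1b. Exact intervals of pooled ratios and floors (3 fragments) cover counting error only; intervals of log2 fold changes come from edgeR. For 1 pathway gene, values are not reported here.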

Additional observations from a re-analysis of the deposited data

Results flagged for a closer look

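In groups of 4 libraries, 3 of the 28 groups examined held a library far from the others by Dixon's ratio, which chance gives in about 1 of 20 groups of continuous values. For Il1a, smooth 1 was at 0.180 CPM and the other smooth libraries at 0, where the ratio is 1 whatever the level of smooth 1, so that rate does not apply. On structured PEEK, structured 1 was at 0.606 CPM for Il1a, against 0.295 to 0.326 in the others. The summed neutrophil markers without Mmp9 were at 23.2 CPM in structured 1, against 79.7 to 90.9 in the others.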

How the results depend on the processing

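Of the alternatives, limma voom gave 1 called member (Il1a), and each library left out gave 0 to 1, Il1a without smooth 1 and Il1r2 without structured 1; the others gave 0. Among wider pathway genes 1 was called, against 0 with no filter, with limma on log2(FPKM + 0.5), (FPKM + 0.1) or (FPKM + 1), where Il1f9 was below the FPKM minimum and not tested, with the GC and length trend removed together with the replicate block, or with structured 1 alone, 3 with DESeq2, and 0 to 4 with libraries left out (Irak3 and Irak4 were among those called beside Il1f9 without structured 3). Over all genes 601 were called, against 189 with no filter, 1375 with DESeq2, 350, 348 and 338 with the 3 FPKM fits, 265 with the trend removed and the replicate block, 7 with structured 1 alone, and 88 to 597 with libraries left out. Of those calls 73.2% were lower, but 61.6% with DESeq2, 55.0% with the trend removed, 61.1% with that and the block, and 57.1% with structured 1 alone. The cause of these shifts was not tested. The Il1b share differed by 2.89 percentage points, 1.03 as a share of counts, and 1.87 to 3.60 with libraries left out. In the paired test on replicate numbers it stayed 2.89 with an exact p of 0.125, the smallest 4 pairs allow. Same-numbered libraries correlated at 0.0254 to 0.397 and 4 of 8 matched their own number best, so the numbers were not taken as pairs; the replicate block gave 499 calls and moved no member across the threshold. Signs turned for Casp1 (-0.058 with the trend removed, -0.056 with that and the block, -0.012 to 0.14 with libraries left out), Il1rap (-0.035 to 0.21 with libraries left out, below 0 without smooth 1) and Pycard (-0.17 to 0.017, above 0 without structured 1). Casp1 was below 0 without smooth 1 and, at -0.0038, without structured 2. Mefv, at 0 in every smooth library, could pass the filter only through its structured counts. By edgeR it passed the threshold without smooth 1 (adjusted p = 0.0347). It did not without smooth 2, 3 or 4, without structured 4 or with no filter, at adjusted p-values of 0.0523 to 0.0595. Il1a, Il1b and Il1r2 fell below the stricter filters and the FPKM minimum, and DESeq2 gave no adjusted p for 5 members or for Il1f9. Depth limits Il1a, Il1b, Il1f9, Il1r2 and Mefv to at most 92.5 fragments over a group.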

Other observations

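Nlrp6, a sensor studied mainly in the gut, differed more within the structured group than between the surfaces and was chosen after its values were seen. It had 67, 62, 47 and 41 count units in smooth 1 to 4 and 8, 0, 92 and 196 in structured 1 to 4. Structured 3 and 4 were above every smooth library and structured 1 and 2 below every one, and edgeR gave a log2 difference between the surfaces of 0.49 with a standard error of 0.98 (BH-adjusted p = 0.861). The hepatocyte marker sum was 365, 111, 105 and 74.8 CPM in smooth 1 to 4 and 156, 162, 293 and 501 CPM in structured 1 to 4. It ordered the smooth libraries as Nlrp6 did, and the structured libraries nearly so. Across the surfaces, smooth 2 to 4 had lower sums than structured 1 and 2 with more Nlrp6 units. The part of the hepatocyte transcripts in the Nlrp6 level was not tested.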
